A study of Mus musculus with 6 samples.

Results

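The genes described here encode the class II pathway of antigen presentation, and 9 members were taken from the count table by symbol, as a set proposed after results of these data had been seen. They are the I-A chain genes H2-Aa and H2-Ab1, the I-E beta chain gene H2-Eb1, the invariant chain gene Cd74, the peptide exchange factor genes H2-DMa and H2-DMb1, their modulators H2-Oa and H2-Ob, and the transactivator gene Ciita. All 9 were found among the 24167 genes of the table, and all 9 passed the filter on low counts that left 15567 genes to test.

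In the shZdhhc17 group, 4T1 cells, a BALB/c mouse line of triple-negative breast cancer, carried a lentiviral hairpin against the palmitoyltransferase gene Zdhhc17. In the shSCR group the same line carried a scrambled hairpin, and both cell populations had been selected with puromycin, with no clone named. Each injection put 500000 cells hydrodynamically into the tail vein of female BALB/c mice aged 6 to 8 weeks, metastases were dissected from the livers at day 10, and polyadenylated RNA of 3 samples per group was sequenced. Host cells in the dissected tissue carry neither hairpin, and the labels do not tie each library to an animal, so every p-value below reflects only how these samples differ among themselves, which may be technical.

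Class II molecules display peptides from endosomes to CD4+ T cells. Their alpha and beta chains assemble in the endoplasmic reticulum with the invariant chain Cd74, which blocks the groove and directs the complex to endosomes, where cathepsin S trims it and H2-DM swaps the remaining fragment for antigenic peptide. H2-O restrains H2-DM and is known mainly from B cells and some dendritic cells. Dendritic cells, macrophages and B cells make class II constitutively, and interferon gamma can induce it in other cells through Irf1 and Ciita. Ciita binds no DNA itself but docks on RFX, CREB and NF-Y proteins at the paired X and Y boxes upstream of class II genes.

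Because class II genes are known for these shared boxes, the stretch is shown for each class II gene in which a pair of short motifs was found. The sequences are from RefSeq, build GRCm38.p6 of C57BL/6J, on the strand of each gene, and the capitals mark GNAAC, a core of the X box, and TGATTGG, which contains the Y box ATTGG, the reverse complement of CCAAT.
H2-Aa (chr17:34287859-34287913, minus strand): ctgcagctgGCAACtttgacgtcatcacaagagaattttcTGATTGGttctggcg
H2-Eb1 (chr17:34305767-34305820, plus strand): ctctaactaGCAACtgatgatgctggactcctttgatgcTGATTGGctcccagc
H2-DMb1 (chr17:34153088-34153142, plus strand): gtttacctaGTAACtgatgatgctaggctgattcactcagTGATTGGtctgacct
H2-Oa (chr17:34092294-34092348, plus strand): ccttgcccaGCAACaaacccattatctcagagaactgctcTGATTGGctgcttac
H2-Ob (chr17:34238809-34238860, plus strand): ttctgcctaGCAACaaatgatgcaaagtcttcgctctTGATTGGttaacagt
H2-Eb2 (chr17:34325534-34325587, plus strand): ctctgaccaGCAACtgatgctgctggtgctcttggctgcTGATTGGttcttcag

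The table of promoter windows, each from 250 bases before a start to 50 after it, held 9 windows of 8 class II genes, of which 6 are members. In the stretches shown the starts of both motifs lay 28 to 31 bases apart. TGATTGG began 50 bases before the start of H2-Aa, 61 before that of H2-Eb1 and 63 before that of H2-DMb1. GNAAC followed by TGATTGG with starts 25 to 40 bases apart, searched on both strands, was found in 6 of the 9 class II windows and in 0.426% of all 32851 windows. These letters were chosen after the windows had been read, so the shares are a description. TGATTGG alone was in 7 of the 9 windows and in 7.82% of all, and CCAAT in 8 of the 9 and in 37.4% of all. Of other motifs searched on both strands, TGACG, part of the X2 box, was in 1 of the 9 windows, that of H2-Aa, where it lies between the pair, and in 20.8% of all. AGNNACAG was in 3 of the 9 windows and 25.9% of all, and the same letters with ATG added at the 3′ end in 1 of the 9, that of H2-Oa, and 0.423% of all. The 2 windows of H2-DMa held none of these motifs except CCAAT in one of them.

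Gene counts summed to between 15832837 and 18234406 in shZdhhc17 libraries and between 16129825 and 19186615 in shSCR libraries. Levels are in CPM, counts scaled to the TMM-normalized library size. Zdhhc17 itself had 25.9, 27.8 and 26.0 CPM in shZdhhc17 replicates 1, 2 and 3, against 33.7, 32.4 and 34.2 CPM in shSCR replicates 1, 2 and 3. Its log2 fold change was -0.33 ± 0.11 (SE; edgeR adjusted p = 0.383). The dissected samples held other tissue in varying amounts by their markers. The 8 hepatocyte markers summed to 38193 to 50758 CPM in shZdhhc17 and to 17968 to 45365 CPM in shSCR, lowest in shSCR replicate 3, and the 8 carcinoma epithelial markers to 1644 to 3067 CPM in shZdhhc17 and to 2077 to 3092 CPM in shSCR. In shSCR replicate 1 the ribosomal RNA copy Rn18s-rs5 took 2.54% of counts, against 0.194% to 0.412% in the other libraries.

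All 9 class II genes had a lower mean in shZdhhc17 than in shSCR metastases, and none passed the test. Their log2 fold changes ran from -1.54 (H2-Eb1) to -0.74 (H2-Oa), with a median of -1.21 beside 0.0017 over all genes tested, of which 49.7% had a negative value. Of the 9, 6 had a log2 fold change of -1 or lower, beside 2.54% of all genes. edgeR's quasi-likelihood test, with Benjamini-Hochberg adjustment over all genes, called 0 of the 9 at an adjusted p under 0.05, as it called 0% of the 15567 genes. At an unadjusted p under 0.05 it gave 1 member, H2-Aa, where 6.71% of all genes met that with a lower level and 11.4% in either direction. DESeq2 called 0 of the 9, where it called 1.17% of genes in either direction and 0.619% as lower. limma voom called 0 of the 9, as it called 0 of all genes. At an unadjusted p under 0.05 DESeq2 gave 2 members, H2-Aa and H2-DMa, beside 5.91% of genes with a lower level and 11.1% in either direction, and limma voom gave 0 members beside 5.97% of genes with a lower level. In bulk tissue, fewer presenting cells and less class II RNA per cell cannot be told apart.

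H2-Aa (ENSMUSG00000036594.16), the alpha chain of I-A, had 81.6, 176 and 265 CPM in shZdhhc17 replicates 1, 2 and 3. It had 162, 573 and 727 CPM in shSCR replicates 1, 2 and 3. Its mean was 174 ± 91.8 CPM (SD, n = 3) for shZdhhc17, against 487 ± 292 CPM (SD, n = 3) for shSCR, and the log2 fold change was -1.48 (SE 0.60, edgeR adjusted p = 0.418). The groups overlapped in that shSCR replicate 1 lay below the upper 2 shZdhhc17 libraries, while shSCR replicates 2 and 3 lay above every shZdhhc17 library. H2-Ab1 (ENSMUSG00000073421.7), its beta chain partner, had 85.4, 171 and 239 CPM in shZdhhc17 libraries and 126, 486 and 637 CPM in shSCR libraries. Its log2 fold change was -1.33 ± 0.60 (SE; edgeR adjusted p = 0.452). The same placing of the libraries was seen for this partner chain.

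H2-Eb1 (ENSMUSG00000060586.12), the beta chain of I-E, had 51.3, 128 and 197 CPM in shZdhhc17 libraries and 99.6, 424 and 567 CPM in shSCR libraries. Of the 9 members it had the most negative log2 fold change, -1.54 ± 0.67 (SE; edgeR adjusted p = 0.443), and its highest library lay 11.1-fold above its lowest. The I-E alpha chain gene H2-Ea, not among the 9, is inactive in the reference strain C57BL/6 and intact in BALB/c mice. It had 38.2, 75.3 and 112 CPM in shZdhhc17 libraries and 63.9, 231 and 215 CPM in shSCR libraries (log2 fold change -1.18, SE 0.53; edgeR adjusted p = 0.457). Both I-E chains were detected in every library, low in shSCR replicate 1 and highest in the other shSCR libraries. H2-Eb2, a further beta chain gene, had 0 to 4 counts per library in shZdhhc17 and 1 to 3 in shSCR, too few to be tested.

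Cd74 (ENSMUSG00000024610.16), the invariant chain and the most abundant member, had 197, 432 and 606 CPM in shZdhhc17 libraries and 278, 1243 and 1326 CPM in shSCR libraries. Its mean was 412 ± 206 CPM (SD, n = 3) for shZdhhc17, against 949 ± 583 CPM (SD, n = 3) for shSCR, and the log2 fold change was -1.21 (SE 0.62, edgeR adjusted p = 0.493). Again shSCR replicate 1 stood among the shZdhhc17 values and the other shSCR libraries above them.

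Ciita (ENSMUSG00000022504.11), the transactivator on which class II transcription depends, had 5.35, 22.4 and 28.6 CPM in shZdhhc17 libraries and 7.85, 46.3 and 73.4 CPM in shSCR libraries. No member spread more widely over the 6 libraries: the highest stood 13.7-fold above the lowest. The log2 fold change was -1.18 ± 0.81 (SE; edgeR adjusted p = 0.586), so the standard error was wide beside the difference.

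**Figure D1:**
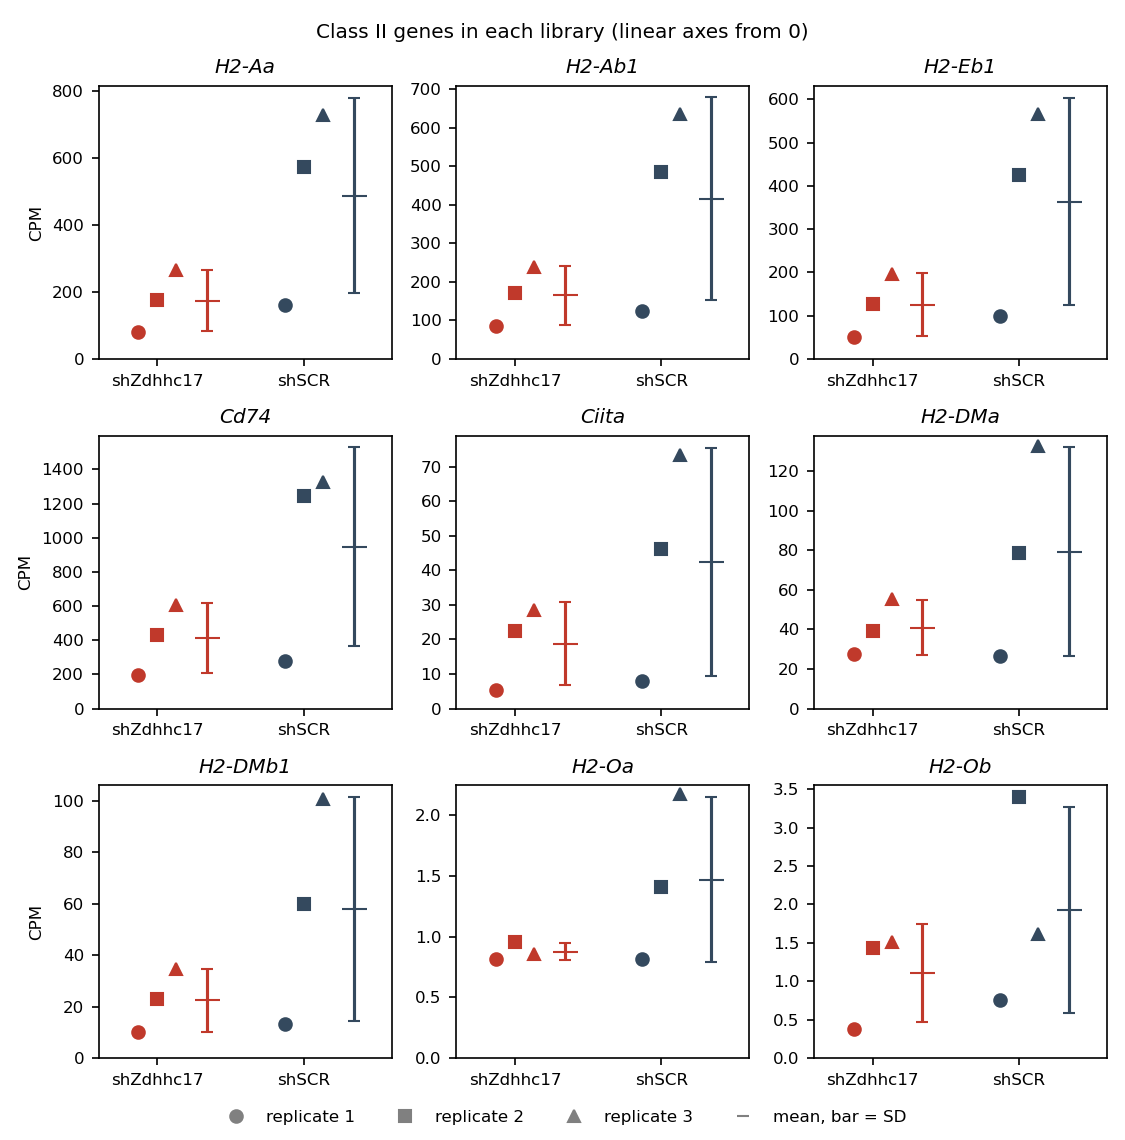
Level of each of the 9 class II genes, in CPM on linear axes from 0, for the 3 shZdhhc17 (left, red) and 3 shSCR (right, grey-blue) libraries; symbols give the replicate, bars the mean and SD. In each panel shSCR replicate 1 (circle) lies within or under the shZdhhc17 values, and shSCR replicates 2 and 3 lie above all shZdhhc17 libraries.

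The exchange factor H2-DM is made of H2-DMa and H2-DMb1 or its near-identical neighbour H2-DMb2, and how reads were divided between H2-DMb1 and H2-DMb2 is uncertain. H2-DMa (ENSMUSG00000037649.11) had 27.7, 39.4 and 55.5 CPM in shZdhhc17 libraries and 26.8, 78.7 and 133 CPM in shSCR libraries (log2 fold change -0.96, SE 0.53; edgeR adjusted p = 0.514). H2-DMb1 (ENSMUSG00000079547.5) had 10.1, 23.1 and 34.5 CPM in shZdhhc17 libraries and 13.4, 59.8 and 101 CPM in shSCR libraries (log2 fold change -1.36, SE 0.70; edgeR adjusted p = 0.492). H2-DMb2, which is not among the 9, had 11.4, 19.3 and 24.9 CPM in shZdhhc17 libraries and 14.1, 43.3 and 70.4 CPM in shSCR libraries (log2 fold change -1.20, SE 0.55; edgeR adjusted p = 0.458). Unlike in the chain genes, the lowest library of H2-DMa was shSCR replicate 1 and not shZdhhc17 replicate 1, though narrowly (26.8 against 27.7 CPM).

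H2-Oa and H2-Ob, the chains of the H2-DM inhibitor, had few counts. H2-Oa (ENSMUSG00000024334.10) had 13, 16 and 13 counts in shZdhhc17 libraries and 15, 27 and 39 counts in shSCR libraries. H2-Ob (ENSMUSG00000041538.17) had 6, 24 and 23 counts in shZdhhc17 libraries and 14, 65 and 29 counts in shSCR libraries. Their log2 fold changes were -0.74 ± 0.41 (SE; edgeR adjusted p = 0.516) for H2-Oa and -0.80 ± 0.65 (SE; edgeR adjusted p = 0.649) for H2-Ob. The difference of H2-Ob rested largely on single libraries: its log2 fold change was -0.10 without shSCR replicate 2 and -0.39 without shZdhhc17 replicate 1. With so few counts, counting noise adds to the spread between libraries for these members.

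Per kilobase of exon the members differed by orders of magnitude. Levels here are mean CPM divided by the merged exon length of GENCODE vM21, an older annotation than that of the counts, so they are approximate. Cd74 stood at 245 CPM per kilobase in shZdhhc17 and 565 in shSCR. The chain genes H2-Aa, H2-Ab1 and H2-Eb1 stood at 45.9, 64.4 and 64.5 in shZdhhc17 and at 128, 162 and 187 in shSCR, and H2-Ea at 72.4 in shZdhhc17 and 164 in shSCR. H2-DMa and H2-DMb1 followed with 11.8 and 13.4 in shZdhhc17 and 23.0 and 34.4 in shSCR, then Ciita with 1.97 in shZdhhc17 and 4.46 in shSCR. H2-Oa and H2-Ob were lowest, at 0.623 and 0.206 in shZdhhc17 and 1.04 and 0.358 in shSCR. Within each library H2-Aa had the lowest level per kilobase of the 4 chain genes, in 6 of 6 libraries, as in shZdhhc17 replicate 1 with 21.5, against 33.2 for H2-Ab1, 26.4 for H2-Eb1 and 36.9 for H2-Ea. H2-Ea had the highest in 5 of 6, the exception being shSCR replicate 3, where H2-Eb1 was highest. This order was not tested and depends on the exon lengths used.

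The members varied together across libraries. As a sum they took 0.0461%, 0.0913% and 0.135% of all counts in shZdhhc17 replicates 1, 2 and 3, against 0.0684%, 0.312% and 0.396% in shSCR replicates 1, 2 and 3. From low to high, the libraries stood in the order shZdhhc17 1, shSCR 1, shZdhhc17 2, shZdhhc17 3, shSCR 2, shSCR 3 for H2-Aa, H2-Ab1, H2-Eb1, Cd74, Ciita and H2-DMb1, which are 6 of the 9. That order was read from the members themselves; 0.983% of all genes tested had it. Of the 9, 0 had groups that did not overlap with shZdhhc17 lower, where 9.62% of all genes tested did; none was higher throughout either, where 7.48% of all genes were.

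The overlap of the groups rested on 1 control library. Without shSCR replicate 1, the groups no longer overlapped in 9 of the 9 members, where 20.2% of all genes tested then had shZdhhc17 lower throughout. The median log2 fold change was then -1.67. edgeR still called 0 of the 9, as it called 0 of all genes, the smallest adjusted p of a member being 0.168 for H2-Ab1. DESeq2 without that library, a setting chosen after seeing the data, called 6 members: H2-Aa, H2-Ab1, H2-Eb1, Cd74, H2-DMa and H2-DMb1, with adjusted p from 0.00250 to 0.0108. It then called 691 genes in all, against 201 (1.17% of genes) with all libraries. How many of the 691 were lower was not counted, so the 6 members have no matching share of genes beside them. Leaving out shSCR replicate 3 worked the other way for every member but H2-Ob. Log2 fold changes were then -0.53 for Ciita, -0.70 for H2-DMb1, -0.37 for H2-DMa and -0.35 for H2-Oa. H2-Ob had -0.91, against -0.80 with all libraries. With the mean level of the hepatocyte markers added as a covariate, the median became -0.72, and H2-DMa had -0.20 and Ciita -0.30. H2-Ob was again more negative, at -0.94. In the authors' deposited table, log2 fold changes ran from -1.51 for H2-Eb1 to -0.72 for H2-Oa, and 0 of the 9 had a q under 0.05, where 0.439% of all genes had one and were lower, the smallest being 0.429 for H2-DMa.

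Ratios within a library set the members against each other and against cell markers, as log2 ratios of CPM + 1, tested by an exact two-sided permutation test whose smallest possible p for 3 against 3 is 0.1. Although H2-Aa varied 8.91-fold over the 6 libraries, its log2 ratio to H2-Ab1 stayed between -0.064 and 0.37. That ratio averaged 0.041 ± 0.11 for shZdhhc17, against 0.26 ± 0.091 for shSCR (SD, n = 3 per group), a difference of -0.22 (exact permutation p = 0.1; adjusted over 6 ratios, p = 0.2). The log2 ratio of Cd74 to H2-Aa averaged 1.25 ± 0.051 for shZdhhc17, against 0.92 ± 0.18 for shSCR (SD, n = 3 per group; exact permutation p = 0.1, adjusted p = 0.2). For H2-DMa to H2-Aa the average was -1.96 ± 0.39 for shZdhhc17, against -2.62 ± 0.21 for shSCR (exact permutation p = 0.1, adjusted p = 0.2). In these 3 ratios the groups did not overlap, with H2-Aa on the low side in shZdhhc17 each time. No ratio could pass 0.05 under this test.

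Against markers of cells that carry class II, the picture differed by marker. Itgax, the CD11c integrin of dendritic cells and some macrophages, had 12.4, 23.7 and 18.3 CPM in shZdhhc17 libraries and 25.3, 49.2 and 69.1 CPM in shSCR libraries. The log2 ratio of H2-Aa to Itgax was 3.08 ± 0.62 for shZdhhc17, against 3.18 ± 0.47 for shSCR (SD, n = 3 per group), a difference of -0.091 (exact permutation p = 0.9, adjusted p = 0.9) whose sign turned when any of 4 single libraries was left out. Itgax itself was lower in shZdhhc17 libraries without overlap but did not pass (log2 fold change -1.40, SE 0.38; edgeR adjusted p = 0.322), and the authors' deposited table gave it a q of 0.0256. For Ptprc, the leukocyte marker CD45, the ratio was 1.13 ± 0.43 for shZdhhc17, against 2.16 ± 0.68 for shSCR (SD, n = 3 per group; exact permutation p = 0.2, adjusted p = 0.24). For the class I heavy chain gene H2-K1 it was -2.72 ± 0.80 for shZdhhc17, against -1.78 ± 0.51 for shSCR (SD, n = 3 per group; exact permutation p = 0.2, adjusted p = 0.24). These last ratios overlapped between the groups.

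**Figure D2:**
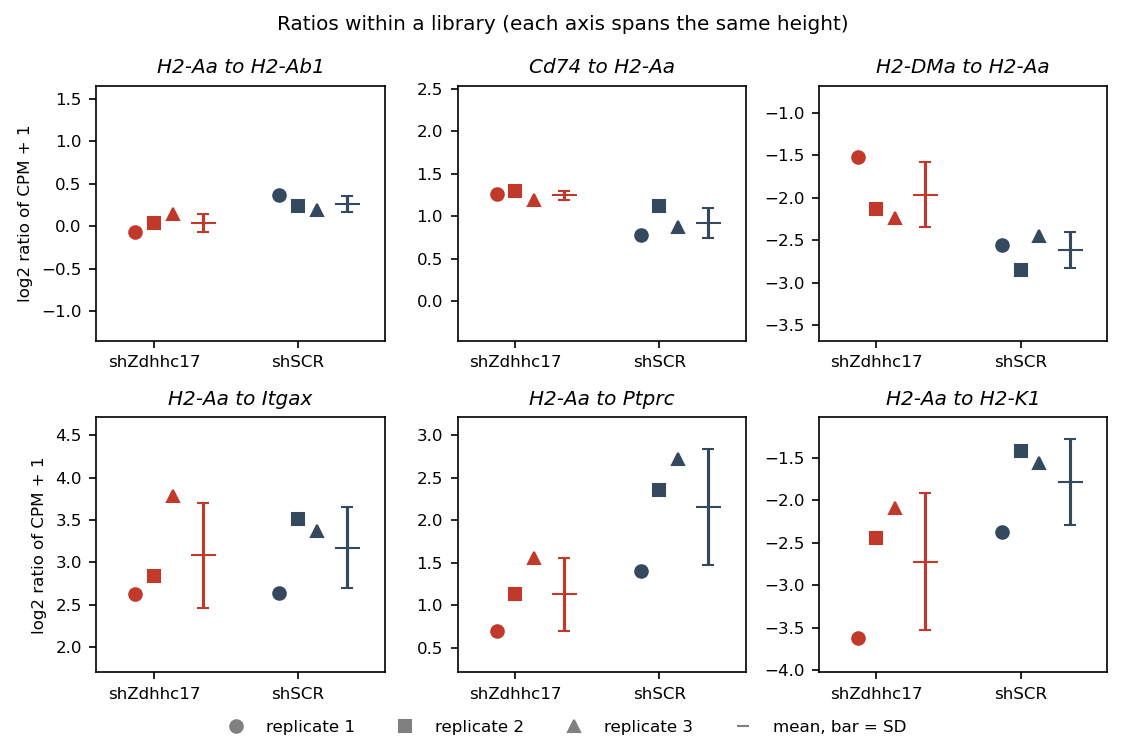
Log2 ratios of CPM + 1 within each library for 6 gene pairs, shZdhhc17 (left, red) and shSCR (right, grey-blue); symbols give the replicate, bars the mean and SD, and every vertical axis spans the same height. H2-Aa to H2-Ab1 stays within -0.064 to 0.37, while H2-Aa to H2-K1 ranges from -3.63 to -1.42.

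The interferon gamma axis, from its receptors to Irf1, acts upstream of Ciita. None of the 8 tested genes of this axis passed, 5 had a log2 fold change below 0, and the median was -0.71. Jak2, the kinase bound to the Ifngr2 chain, had the smallest p of the list. It stood at 85.5, 88.3 and 96.9 CPM in shZdhhc17 libraries and 138, 144 and 166 CPM in shSCR libraries, groups that did not overlap (log2 fold change -0.73 ± 0.13, SE; edgeR adjusted p = 0.307). In the authors' deposited table Jak2 had a log2 fold change of -0.71 with a q of 0.00344, a call that edgeR did not make. Socs1, a feedback inhibitor of Jak kinases, had -1.83 ± 0.99 (SE; edgeR adjusted p = 0.511), with 116 CPM in shSCR replicate 3 and 5.67 to 18.8 CPM in the other libraries. Irf1 had a log2 fold change of -0.74, while Ifngr1 and Ifngr2 had 0.069 and 0.043. Ifng itself had 0, 6 and 5 counts in shZdhhc17 libraries and 0, 11 and 58 counts in shSCR libraries and was too low to test.

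RNA was also measured for the DNA-binding partners of Ciita. Of the 7 genes for RFX subunits, NF-Y subunits and Creb1, 0 passed, 6 had a negative log2 fold change, and the values lay between -0.41 and 0.23 with a median of -0.20. Rfxank, an RFX subunit, had the smallest p, with a mean of 11.8 ± 0.798 CPM (SD, n = 3) for shZdhhc17, against 15.7 ± 0.859 CPM (SD, n = 3) for shSCR (log2 fold change -0.41 ± 0.14, SE; edgeR adjusted p = 0.383). Nfya, an NF-Y subunit, had -0.32 ± 0.15 (SE; edgeR adjusted p = 0.462). Rfxank and Rfxap were the list's genes whose groups did not overlap.

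Endosomal processing genes, which act after transcription, lay near 0 on the log2 scale. Of the 7 endosomal processing genes, 0 passed and 5 had a positive log2 fold change, with a median of 0.11. The groups did not overlap for Ctsd and Sppl2a, both higher in shZdhhc17. Ctss, the cathepsin that trims the invariant chain, had 251, 247 and 319 CPM in shZdhhc17 libraries and 202, 303 and 414 CPM in shSCR libraries (log2 fold change -0.17, SE 0.27; edgeR adjusted p = 0.824). The smallest p values in the list were those of Sppl2a, the protease that clears the last Cd74 fragment (0.24 ± 0.13, SE; edgeR adjusted p = 0.515), and Ifi30, a lysosomal thiol reductase (-0.34 ± 0.29, SE; edgeR adjusted p = 0.666). Of the 3 tested genes of surface turnover 0 passed. Cd83, which protects class II from ubiquitination, had -0.90 ± 0.30 (SE; edgeR adjusted p = 0.378) and groups that did not overlap, and Marchf8, a membrane ubiquitin ligase, had 0.32 ± 0.16 (SE; edgeR adjusted p = 0.491). All 4 costimulatory genes were below 0 on the log2 scale (median -0.66), and 0 passed; Icosl had -0.73 ± 0.27 and Cd40 -1.32 ± 0.52 (SE; edgeR adjusted p = 0.404 and 0.412).

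**Figure D3:**
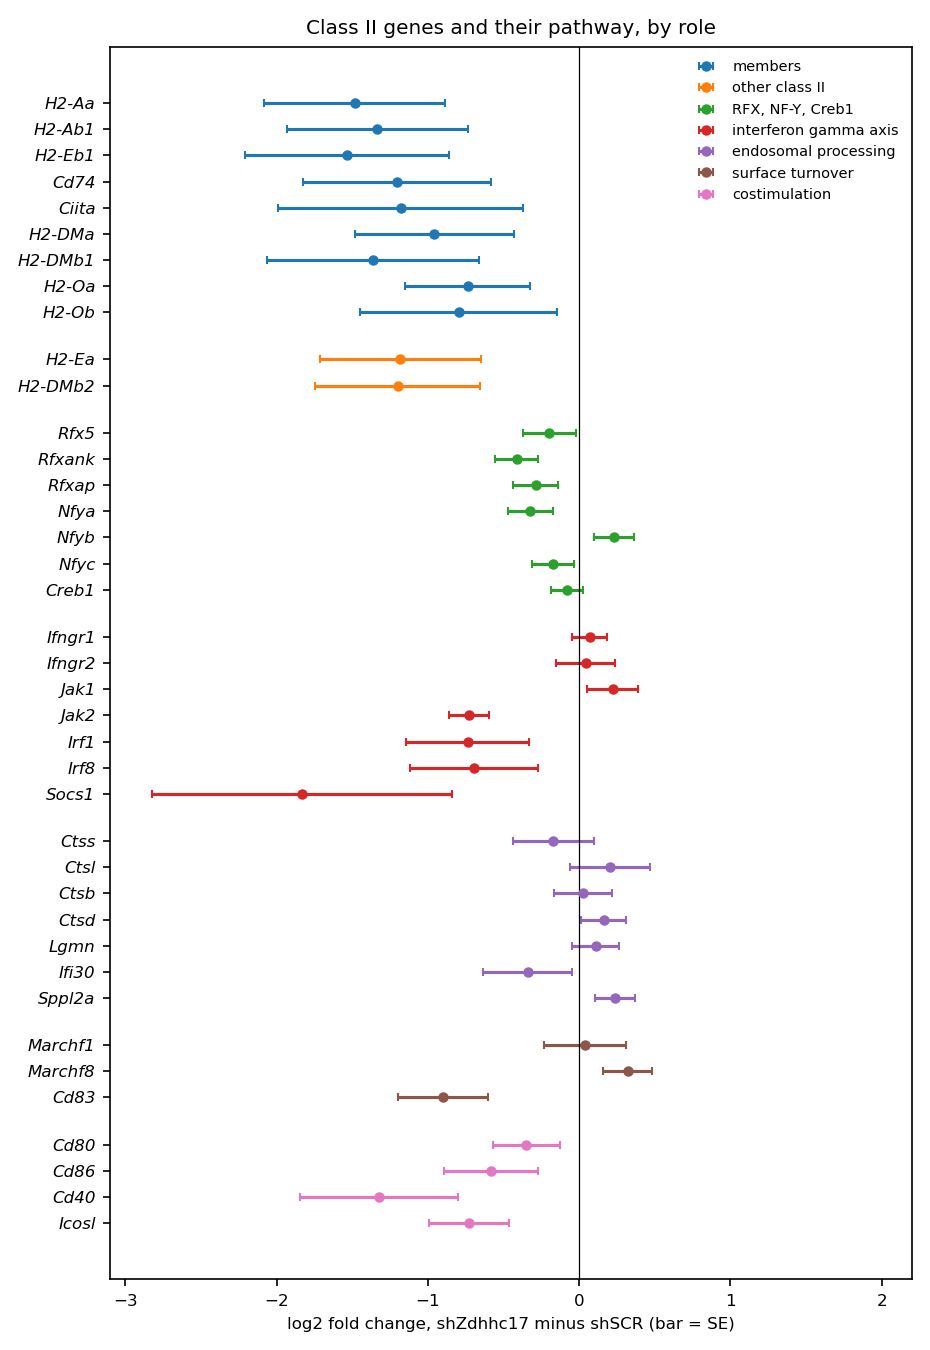
Log2 fold change, shZdhhc17 minus shSCR, with its SE for the class II genes and the reported genes of their pathway, grouped by role from top to bottom. The members lie between -1.54 and -0.74 with wide bars, the RFX, NF-Y and Creb1 genes between -0.41 and 0.23, and the endosomal processing genes between -0.34 and 0.24.

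Genes that lie among the class II genes on the chromosome, and class I genes, were also lower in the mean. The 5 tested region neighbours had a median of -0.60, with 0 past the test. Psmb8 and Psmb9, subunits of the immunoproteasome, had -0.56 ± 0.35 and -0.77 ± 0.51 (SE; edgeR adjusted p = 0.555 and 0.573). Brd2, a chromatin reader gene of the same region, had -0.20. The 4 class I genes had a median of -0.44, with -0.99 ± 0.51 for Nlrc5, the class I transactivator, and -0.54 ± 0.34 for H2-K1 (SE; edgeR adjusted p = 0.492 and 0.557). That the members' values are more negative than those of class I was tested only in the ratio of H2-Aa to H2-K1 above, which did not pass.

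The marker lists of cells that can carry class II differed in direction. Dendritic cell markers summed to 34.3, 49.0 and 47.9 CPM in shZdhhc17 libraries and 51.0, 93.5 and 132 CPM in shSCR libraries, and all 9 were detected. Their log2 fold changes were below 0 in 9 of 9 (median -0.95), 0 passed, and the groups did not overlap for Itgax, Cd209a and Zbtb46. Of all genes tested, 9.62% were lower in shZdhhc17 without overlap. Macrophage markers summed to 1017, 1154 and 1201 CPM in shZdhhc17 libraries and 950, 1234 and 1292 CPM in shSCR libraries, with a median log2 fold change of -0.047 over 8 genes. The summed macrophage markers thus overlapped between the groups and spanned a narrow range. C1qa, the most highly expressed of them, averaged 285 CPM in shZdhhc17 and 327 CPM in shSCR. Mrc1, the mannose receptor, had the smallest p of the list and groups that did not overlap, at 114, 122 and 115 CPM in shZdhhc17 libraries and 88.8, 79.0 and 61.9 CPM in shSCR libraries (log2 fold change 0.61, SE 0.16; edgeR adjusted p = 0.307). Adgre1, which encodes F4/80, had 0.50 (SE 0.29), with overlapping groups.

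Kupffer cell and B cell markers had positive medians, 0.90 and 0.40, with 0 genes past edgeR's test. The 5 Kupffer cell markers, those of resident liver macrophages, summed to 264, 491 and 466 CPM in shZdhhc17 libraries and 228, 329 and 99.1 CPM in shSCR libraries. In the authors' deposited table Marco, a scavenger receptor gene of the list, had a q of 0.0462. In contrast to the class II genes, shSCR replicate 3, where most members were highest, had the lowest sum. The 7 B cell markers summed to 5.41, 12.7 and 13.7 CPM in shZdhhc17 libraries and 5.51, 11.2 and 5.64 CPM in shSCR libraries, with Cd79b the most highly expressed. T cell markers summed to 6.60, 13.1 and 10.7 CPM in shZdhhc17 libraries and 7.90, 35.1 and 31.6 CPM in shSCR libraries, low in shSCR replicate 1 as the class II genes were. Their log2 fold changes were below 0 in 7 of 7 (median -1.33), and 0 passed. The 5 natural killer markers summed to 5.09 to 10.7 CPM in shZdhhc17 and to 4.36 to 26.7 CPM in shSCR. All 4 tested natural killer markers were below 0 on the log2 scale (median -0.79), and 0 passed. The 6 neutrophil markers were the list with most genes whose groups did not overlap. In 5 of 6 shZdhhc17 was higher throughout, beside 7.48% of all genes tested. The 6 summed to 332 to 613 CPM in shZdhhc17 and to 86.5 to 279 CPM in shSCR. None passed edgeR's test, while the authors' deposited table gave S100a9 a q of 0.0152 and Mmp8 a q of 0.0151. The 4 leukocyte markers had a median of -0.085 and summed to 302 to 370 CPM in shZdhhc17 and to 237 to 451 CPM in shSCR. The 6 sinusoidal endothelial markers summed to 299 to 408 CPM in shZdhhc17 and to 247 to 324 CPM in shSCR. The most highly expressed marker was Itgax for dendritic cells, Cd5l for Kupffer cells, Cd4 for T cells, Gzmb for natural killer cells, S100a9 for neutrophils, Laptm5 for leukocytes, Alb for hepatocytes, Krt18 for carcinoma cells and Fcgr2b for sinusoidal endothelium, and no marker was at 0 in all libraries. The part of these cell types in the class II levels was not tested.

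**Figure D4:**
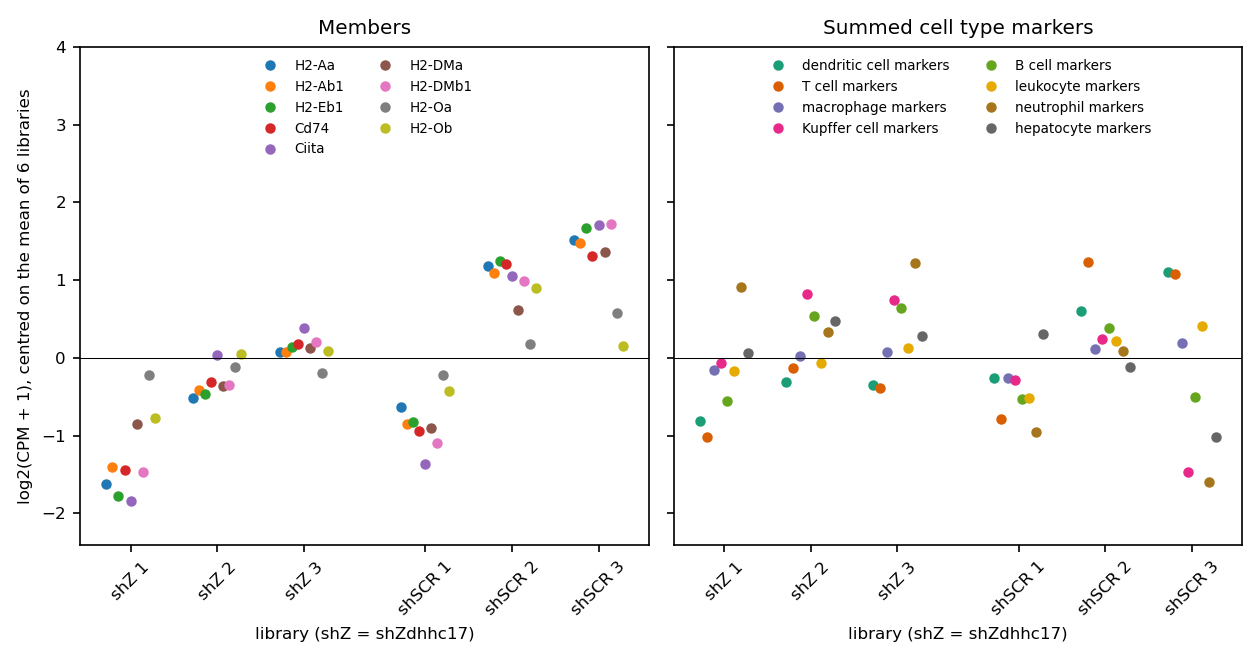
Log2(CPM + 1) centred on the mean of the 6 libraries, for the 9 members (left panel) and the summed markers of 8 cell types (right panel), shZdhhc17 libraries (shZ) left of shSCR libraries. Most members cluster tightly within a library and are lowest in shZdhhc17 replicate 1 and shSCR replicate 1. Dendritic cell, T cell, macrophage, B cell and leukocyte markers are also the lowest of their group there. Kupffer cell, neutrophil and hepatocyte markers are lowest in shSCR replicate 3.

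By the root mean square difference of centred log2(CPM + 1) over the 6 libraries, the genes most like the members' mean profile, out of 13212 candidates, were H2-DMb2 (0.14) and H2-Ea (0.16). Next came Clec9a, a receptor of cross-presenting dendritic cells (0.20), the cytokine receptor gene Il2rb (0.20), the granzyme gene Gzmb (0.21) and Nlrc5 (0.21). Cd274, which encodes PD-L1, Gvin2 and the natural killer receptor gene Klrk1 each had 0.25 to 0.26. Among the members the difference from their own mean ran from 0.13 for H2-Ab1 to 0.66 for H2-Oa. Clec9a stood at 2.01, 4.72 and 5.14 CPM in shZdhhc17 libraries and at 3.43, 10.9 and 11.6 CPM in shSCR libraries. This is the same order of libraries as for H2-Aa, H2-Ab1 and H2-Eb1, but not for H2-Ea.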

How the data were processed

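Counts of mRNA in 6 libraries of dissected liver metastases were analysed. The authors deposited raw counts per gene as whole numbers without normalization, on GRCm39 with GENCODE vM30 per the file headers. Per the submitters' processing notes the tools were STAR 2.6.1, FastQC 0.11.8, DESeq2 1.34.0 and HTSeq, their roles unstated. The kit was stranded, and how strand was used in counting is not known from these sources. The authors also deposited log2 fold changes with p-values and q-values; the description of that table names another contrast than the table itself, whose own contrast was used. The reference sequence is of C57BL/6J while mice and cells are BALB/c; the effect of allele differences on the class II counts was not measured.

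Groups were taken from the sample titles. The main test was edgeR 4.0.16 (glmQLFit, robust, and glmQLFTest, two-sided) with TMM normalization and filterByExpr under R 4.3.3, with Benjamini-Hochberg adjustment over 15567 genes and a threshold of 0.05. The biological coefficient of variation was 0.235. CPM use TMM library sizes, and the standard error is the absolute log2 fold change over the root of F. The test was also run on simulated counts for shZdhhc17 minus shSCR (15380 genes, 200 changed). It found 83% of the 4-fold changes, 23% of the 2-fold changes and 9 genes that had not been changed. How often it would find such changes in the 9 members was not tested. The SEs of their log2 fold changes ran from 0.41 (H2-Oa) to 0.81 (Ciita). Alternatives were DESeq2 1.42.0, limma 3.58.1 voom, other scalings and filters, a replicate block, a hepatocyte covariate and leaving out each library; DESeq2 without each library was added after seeing the data.

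The members and lists were chosen with earlier results of these data known. Named were the 9 members, the other class II genes, the genes with the smallest p of each pathway list, the genes of the 6 ratios, the most highly expressed gene of each cell type list, and those of the 10 genes nearest in profile with a mean of at least 1 CPM that are reported here; Irf1, Ifngr1, Ifngr2, Brd2, Ctss, Adgre1, Mrc1, Marco, S100a9, Mmp8 and the genes whose groups did not overlap were named after their values were seen. Single genes of the lists and of the profile ranking are not reported here, though list counts and medians include them. No library duplicated another of its own group: the chi-square per gene between replicates was at least 13.6, where sampling noise gives about 1. Libraries of different groups were not compared in this way.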

Additional observations from a re-analysis of the deposited data

How the results depend on the processing

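All 9 members had a negative log2 fold change under each of the 21 alternatives, and the median of the 9 ran from -1.67 to -0.72; leaving out a single library gave -1.67 (without shSCR replicate 1) to -0.86 (without shZdhhc17 replicate 1). With library totals alone the median of all genes moved to -0.13, and that of the members lay -1.27 from it. The number of members called was 0 in all settings except DESeq2 without shSCR replicate 1, which called 6 of them: H2-Aa (-1.87), H2-Ab1 (-1.74), H2-Eb1 (-1.96), Cd74 (-1.62), H2-DMa (-1.34) and H2-DMb1 (-1.80). The share of all genes called lower in that setting was not counted. Over all genes edgeR called 0, against 3 with no filter on low counts, 2 with the hepatocyte covariate and 0 to 1 without a single library. DESeq2 called 201, and without shZdhhc17 replicates 1, 2 and 3 it called 369, 96 and 34, and without shSCR replicates 1, 2 and 3 it called 691, 115 and 99. Why these counts differ was not tested.

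The number of members whose groups did not overlap ran from 0 to 9 without a single library, the 9 being without shSCR replicate 1. The difference in the log2 ratio of H2-Aa to Itgax ran from -0.44 to 0.14, positive without shZdhhc17 replicate 1 (0.14) or 2 (0.031) and without shSCR replicate 2 (0.078) or 3 (0.0094); the cause was not tested. The other 5 ratios kept their direction under a pseudocount of 0.25 CPM and without each library. Same-numbered libraries deviated from their group means with correlations of -0.059, 0.32 and -0.046 for replicates 1, 2 and 3. Only for replicate 2 was the same-numbered shSCR library the best match. With 3 libraries per group these values cannot decide whether the numbers pair the samples. With the replicate number as a block 0 genes were called and the members' median was -1.05. Under the block 7 of the 9 members, all but H2-Oa and H2-Ob, had an unadjusted p under 0.05, beside 6.48% of genes that had one and were lower. In the main fit, with 3 libraries per group, no member's difference passed adjustment over all genes, and no other gene's did. Each member's difference exceeded its own SE, and its control values spread widely.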
